A study of Mus musculus with 17 samples.

Results

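The 10 imprinted genes of a growth network, H19, Igf2, Meg3, Dlk1, Peg3, Mest, Plagl1, Grb10, Igf2r and Ndn, were followed through RNA-seq of mouse neural retina progenitor cells (mNRPCs). They were chosen by gene symbol. The deposited tables listed 8 of the 10 in at least 1 of 17 libraries and 5 in all 17, out of 18836 genes listed in any library. The cells came from the retina of adult C57BL/6 mice, an inbred strain with no genetic change in these samples, and were grown as a passaged line in defined medium. By its label, 1 library was untreated at day 0. The study's text gives that library as cells kept in BM, and it entered no test. The other 16 were sampled on days 1, 3, 5 and 7, with 1 library per day of each of 4 media: basic medium alone (BM), with bFGF added (B), with CHIR99021 added (C) or with both agents (BC). The mitogen bFGF, also called FGF2, acts on FGF receptors. CHIR99021 inhibits the kinase GSK3 and so stabilises β-catenin. No treatment and day was replicated, so every value below is 1 library, and nothing shows the spread between separate cultures.

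An imprinted gene is read mainly from 1 parental chromosome, because methylation of a control region was set differently in egg and sperm. Many genes read from the paternal chromosome, such as Igf2, Mest, Peg3 and Dlk1, favour fetal growth, whereas the maternally read H19, Igf2r and Grb10 restrain it. Plagl1, also called Zac1, encodes a zinc finger transcription factor that can arrest the cell cycle and regulates several other imprinted genes. Ndn encodes necdin, a MAGE family protein abundant in postmitotic neurons that restrains proliferation. The inbred strain carries the same sequence on both parental chromosomes, so the data cannot tell which parental copy was read.

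Total expected counts, the estimated number of reads assigned to genes, ran from 17571973 to 19428744 per library. The marker genes only partly fitted the cell type in the label. Among retinal progenitor markers, Pax6, Six3, Sox2, Nes and Hes1 had a mean of at least 1 FPKM (read fragments scaled by transcript length and by library depth), whereas Six6 and Rax never reached 0.1 FPKM. Summed over their lists, photoreceptor, pigment epithelium, endothelium and microglia markers stayed at or below 2.58 FPKM in every library. Müller glia and astrocyte markers summed to 16.02 to 191 FPKM without and 20.8 to 81.7 with bFGF, and retinal neuron markers to 24.4 to 52.9 and 13.3 to 51.0. Only Glul and Apoe of the glial list, and Tubb3, Slc6a9 and Prkca of the neuronal list, averaged at least 1 FPKM. Slc1a3, Rbfox3, Gad1 and Elavl4 never reached 0.1 FPKM, and Gfap never passed 0.12. The fibroblast and pericyte list summed to 310 to 880 FPKM without bFGF, 71.2 to 179 with bFGF and 200 at day 0. The progenitor list summed to 149 to 404 without bFGF, 96.1 to 207 with bFGF and 109 at day 0. In bulk RNA, fewer cells that express a gene and less RNA per cell cannot be told apart.

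Promoter windows are shown for the 3 members that ended lower with bFGF on day 7, and for Igf2r, the most abundant member. Each window runs from 250 bases before to 50 bases after the RefSeq start in GRCm38.p6, and is written 5′ to 3′ on the gene's strand. The 3 motifs searched on both strands were GGGGCCCC, bound by PLAGL1, TGCCGC, bound by ZFP57 when methylated, and GCCATNTT, the core bound by YY1. Capitals mark the matches. The windows lie at chr7:62348027-62348326 on the plus strand for Ndn, chr7:6730370-6730669 on the minus strand for Peg3, chr10:13090582-13090881 on the plus strand for Plagl1 and chr17:12769657-12769956 on the minus strand for Igf2r.
Ndn: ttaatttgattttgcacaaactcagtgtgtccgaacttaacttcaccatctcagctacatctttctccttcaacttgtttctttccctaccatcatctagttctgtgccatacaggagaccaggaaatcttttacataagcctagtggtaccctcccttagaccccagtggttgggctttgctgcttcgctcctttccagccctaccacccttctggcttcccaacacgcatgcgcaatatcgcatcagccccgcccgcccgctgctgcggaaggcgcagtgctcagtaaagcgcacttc
Peg3: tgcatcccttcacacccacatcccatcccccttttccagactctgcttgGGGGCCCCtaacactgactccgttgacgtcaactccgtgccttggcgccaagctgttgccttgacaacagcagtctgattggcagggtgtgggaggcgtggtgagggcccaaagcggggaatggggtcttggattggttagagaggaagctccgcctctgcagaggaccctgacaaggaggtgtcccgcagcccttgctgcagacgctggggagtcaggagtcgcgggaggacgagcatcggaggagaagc
Plagl1: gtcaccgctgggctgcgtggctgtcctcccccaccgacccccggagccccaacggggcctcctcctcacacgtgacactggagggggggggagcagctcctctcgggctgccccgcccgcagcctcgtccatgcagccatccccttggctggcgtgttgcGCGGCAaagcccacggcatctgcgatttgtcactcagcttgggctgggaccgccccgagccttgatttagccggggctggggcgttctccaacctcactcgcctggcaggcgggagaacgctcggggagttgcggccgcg
Igf2r: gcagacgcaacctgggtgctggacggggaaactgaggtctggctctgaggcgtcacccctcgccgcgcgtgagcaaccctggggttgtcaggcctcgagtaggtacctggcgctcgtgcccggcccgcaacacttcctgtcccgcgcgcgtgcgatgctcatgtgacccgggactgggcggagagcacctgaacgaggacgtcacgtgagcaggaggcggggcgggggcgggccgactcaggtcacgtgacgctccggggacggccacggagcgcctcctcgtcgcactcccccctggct

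The Peg3 window held 1 GGGGCCCC match, starting 201 bases before the start site, and 1.1% of 32851 promoter windows held one. The Plagl1 window held 1 TGCCGC match on the minus strand, 90 bases before the start, against 11.6% of all windows. No window of these 4 genes held GCCATNTT, which 6.1% of all windows did. CpG dinucleotides numbered 11 in the Ndn window, 13 in Peg3, 26 in Plagl1 and 34 in Igf2r, beside a median of 7 over all windows. These matches describe the letters only, and neither methylation nor binding was measured.

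The members differed in level by orders of magnitude. In order of mean FPKM over the 17 libraries they were Igf2r at 64.7, Ndn at 1.501, Mest at 1.44, Plagl1 at 1.35, Peg3 at 0.678, Igf2 at 0.077, Grb10 at 0.004 and Dlk1 at 0.003. Igf2r was the highest member in all 17 libraries, at 10.7 to 82.9 times the next member of the same library. The ranges of Ndn (0.43 to 3.56 FPKM), Mest (0.32 to 3.51), Plagl1 (0.29 to 4.31) and Peg3 (0.08 to 1.26) overlapped, so their order held in the mean and not in each library.

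**Figure D1:**
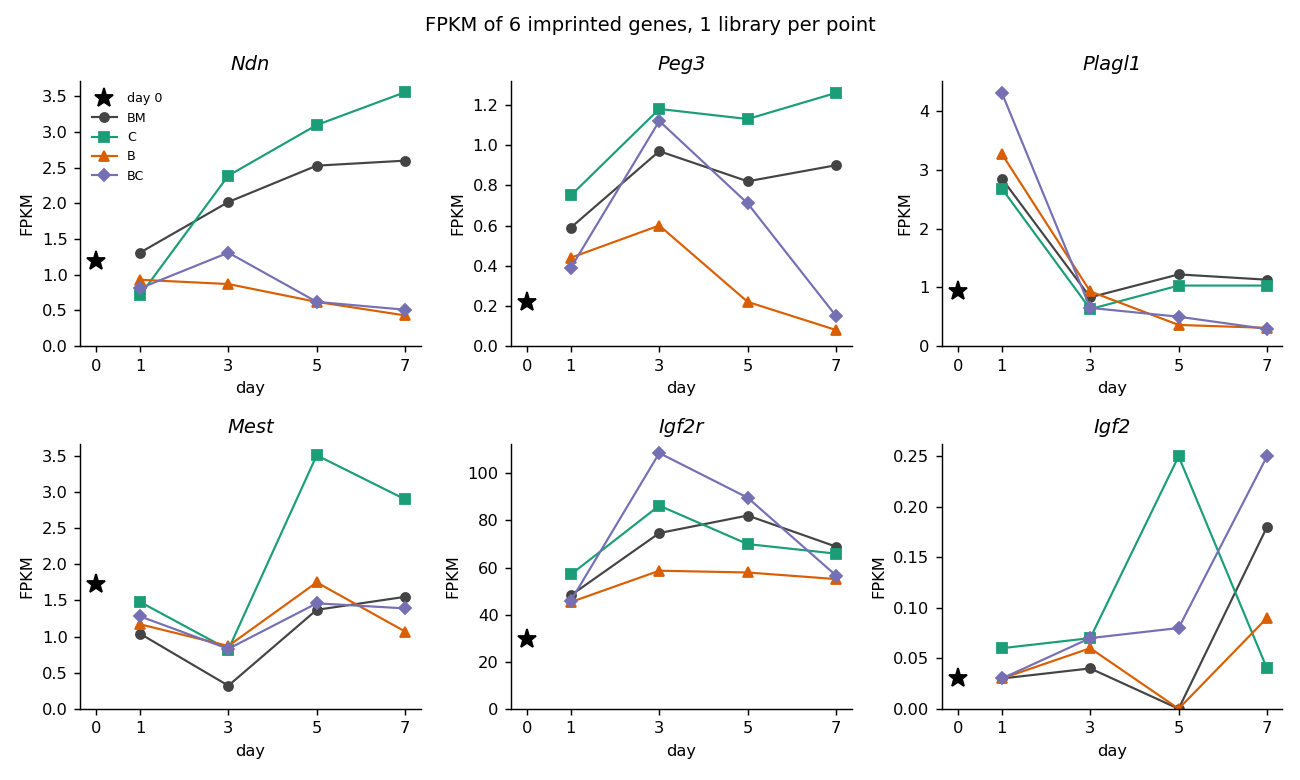
FPKM (y axis) by day (x axis) for Ndn, Peg3, Plagl1, Mest, Igf2r and Igf2, with 1 point per library, a line per treatment and a star for day 0. On day 7 Ndn, Peg3 and Plagl1 lay lower in B and BC than in BM and C, Igf2r lay between 55.1 and 68.9 FPKM in all 4, and Igf2 never passed 0.25.

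The fetal growth factor of the network was near the limit of detection. Igf2, a ligand of the IGF1 and insulin receptors that IGF2R clears, was listed in 15 of 17 libraries, at no more than 0.25 FPKM and 11 expected counts. Its highest libraries in FPKM were C on day 5 and BC on day 7, both at 0.25 FPKM from 9 and 7 counts. Their exact Poisson intervals (95%) were 4.1 to 17.1 and 2.8 to 14.4. BM on day 7 had the most counts, 11, at 0.18 FPKM. Day 0 had 2 counts, and BM and B on day 5 had none. The interval of C on day 5 did not meet those of BM and B on that day, whereas on days 1, 3 and 7 the intervals of the 4 treatments overlapped. A count of 0 allows up to 3 counts at this depth (one-sided), or 0.154 to 0.171 CPM, and up to 3.7 counts in the two-sided interval. These limits cover counting error only.

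Dlk1 and Grb10 were lower still. Dlk1, a membrane protein related to Notch ligands, had 1 count in C on day 7 and 1 in B on day 7, and none in the other 15 libraries. Grb10, an adaptor that damps insulin and IGF1 receptor signalling, had 1 count in each of BM days 1 and 3, C days 1, 3 and 7 and B day 3, and none elsewhere. H19 and Meg3, both long noncoding RNAs, were listed in no library. The tables list genes only by protein-coding RefSeq transcripts, with 0 noncoding accessions, and hold only 90 of 12731 RefSeq lncRNA genes. The absence of H19 and Meg3 from the tables was therefore not read as an expression of 0, and these genes were not measured here.

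Ndn separated the cultures with bFGF from those without. In BM it was 1.31, 2.02, 2.53 and 2.60 FPKM on days 1, 3, 5 and 7, and in C 0.71, 2.39, 3.10 and 3.56. In B it was 0.93, 0.87, 0.62 and 0.43, and in BC 0.81, 1.31, 0.62 and 0.51, with day 0 at 1.19. From day 3 on, both bFGF libraries lay below both libraries without bFGF, and on day 1 the 4 libraries overlapped. How many of all genes part in this way was not counted. The counts behind these values were low, from 13 in B on day 7 (exact Poisson interval 6.9 to 22.2) to 108 in C on day 7 (88.6 to 130). Of the 8 pairs that share day and CHIR99021 treatment, Ndn was lower with bFGF in 7, by 0.85 ± 0.59 on average on the log2(FPKM + 1) scale (SD over pairs). On that scale falls with bFGF outnumbered rises, at 5686 against 2289 genes over days 1 to 7 (limma, adjusted p below 0.05). The share of all genes lower in as many pairs was not counted.

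Over days 1 to 7, Ndn fell by 1.23 ± 0.27 (SE) on the log2 scale with bFGF, the only one of the 4 members in the test that passed the threshold (edgeR quasi-likelihood, adjusted p = 0.00196 by Benjamini-Hochberg over 11272 genes). In the same test 34.6% of all genes rose and 33.9% fell, so 1 call among 4 members is not more than the background. The 4 tested members were those with a mean of at least 1 FPKM in the 16 cultured libraries, namely Ndn, Mest, Plagl1 and Igf2r. Their median log2 fold change was -0.12, beside -0.00 over all genes. Plagl1 (-0.33 ± 0.25, adjusted p = 0.25), Igf2r (0.16 ± 0.12, adjusted p = 0.258) and Mest (0.10 ± 0.23, adjusted p = 0.711) did not pass in the edgeR test. As no condition was replicated, the error in this fit is the departure from additive effects of day, bFGF and CHIR99021, and not a spread between cultures.

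Peg3 was lower with bFGF in every pair. This zinc finger gene, which controls growth and maternal behaviour in mice, was 0.59, 0.97, 0.82 and 0.90 FPKM in BM on days 1 to 7 and 0.75, 1.18, 1.13 and 1.26 in C. In B it was 0.44, 0.60, 0.22 and 0.08, and in BC 0.39, 1.12, 0.71 and 0.15. Day 0, at 0.22, was lower than 13 of the 16 cultured libraries. On day 7 the values with and without bFGF lay far apart, with 14 and 24 counts in B and BC against 142 and 210 in BM and C. On day 3, BC at 1.12 lay between BM and C, so the groups overlapped there.

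The paired difference of Peg3 was -0.44 ± 0.32 on the log2(FPKM + 1) scale (SD over 8 pairs, lower in 8 of 8). This is the scale on which falls outnumbered rises, and the share of all genes lower in 8 of 8 was not counted. A mean of 0.678 FPKM left Peg3 out of the main test, so its fold changes come from the fit with no filter on low values. There it fell by 0.97 ± 0.30 on the log2 scale over days 1 to 7 (edgeR, adjusted p = 0.0148 over 18700 genes, of which 46.5% passed in either direction). On quantile normalized log2(FPKM + 1) values it fell by 0.22 and did not pass (limma, adjusted p = 0.0577).

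Plagl1 was highest on day 1 and lower from day 3 on in every medium. On day 1 it was 4.31 FPKM in BC and 3.27 in B, and 2.85 in BM and 2.68 in C, against 0.93 at day 0. On day 3 the 4 values lay between 0.63 and 0.93. Afterwards BM (1.22 and 1.13 on days 5 and 7) and C (1.03 and 1.03) lay above B (0.36 and 0.31) and BC (0.50 and 0.29). All 4 day 1 libraries were above all 12 later ones, and the groups with and without bFGF did not overlap on days 5 and 7. The share of all genes that part in these ways was not counted. In the test by day below, 75.8% of all genes passed on day 5 and 78.4% on day 7. Its counts ranged from 28 in BC on day 7 to 434 in BC on day 1.

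Igf2r, the cation-independent mannose 6-phosphate receptor that carries lysosomal enzymes and clears IGF2, lay above day 0 in all 16 cultured libraries. It was 29.5 FPKM at day 0. Day 0 is 1 library, and how many of all genes lie above it in as many libraries was not counted for any member. On days 1 to 7 the BM values were 48.2, 74.6, 82.1 and 68.9 and the C values 57.1, 86.3, 70.0 and 65.9. The B values were 45.3, 58.7, 57.9 and 55.1, and BC gave 45.9, 109, 89.7 and 56.6. The 3 lowest of these values were of day 1, and the highest was BC on day 3. With 5197 to 17885 counts per library, counting error was small. It was lower with bFGF in 6 of 8 pairs in FPKM, whereas the edgeR fold change after TMM scaling was positive. Scaled by library totals alone it was -0.13 (adjusted p = 0.334), so its direction with bFGF depended on the scaling. The annotation places the antisense transcript Airn over part of Igf2r, and the strand setting of the counting was not given in the sources used here.

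Mest, which encodes a membrane hydrolase of the endoplasmic reticulum and marks growing mesoderm, had its 2 highest values in C. On days 1 to 7 the BM values were 1.04, 0.32, 1.37 and 1.55 FPKM and the C values 1.48, 0.82, 3.51 and 2.90. The B values were 1.17, 0.87, 1.75 and 1.07, BC gave 1.28, 0.83, 1.46 and 1.39, and day 0 was 1.73. C was above BM on each of the 4 days, whereas BC was above B on days 1 and 7 and below it on days 3 and 5. Only 3 of 16 cultured libraries exceeded day 0, namely C on days 5 and 7 and B on day 5.

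CHIR99021 gave no call among the members. Mest was 0.52 ± 0.22 higher with it on the log2 scale (edgeR, adjusted p = 0.449, unadjusted p = 0.0367), Igf2r 0.23 ± 0.12 (adjusted p = 0.592), Ndn 0.15 ± 0.27 (adjusted p = 0.952) and Plagl1 -0.07 ± 0.24 (adjusted p = 0.977). Over all genes 0.337% passed in either direction, and 1126 of 11272 had an unadjusted p below 0.05, as Mest did. Peg3 was higher with CHIR99021 in 7 of 8 pairs, by 0.21 ± 0.17 on the log2(FPKM + 1) scale. The share of all genes higher in as many of these pairs was not counted. Peg3 did not pass without the filter (edgeR, 0.58 ± 0.29, adjusted p = 0.735). The interaction of bFGF and CHIR99021 called none of the 4 members and 1 gene in all (0.00887%). It gave 178 genes an unadjusted p below 0.05, Mest among them (edgeR, -1.01 ± 0.37, unadjusted p = 0.017). DESeq2 called no member for either term, and 281 genes for CHIR99021 and 5 for the interaction.

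**Figure D2:**
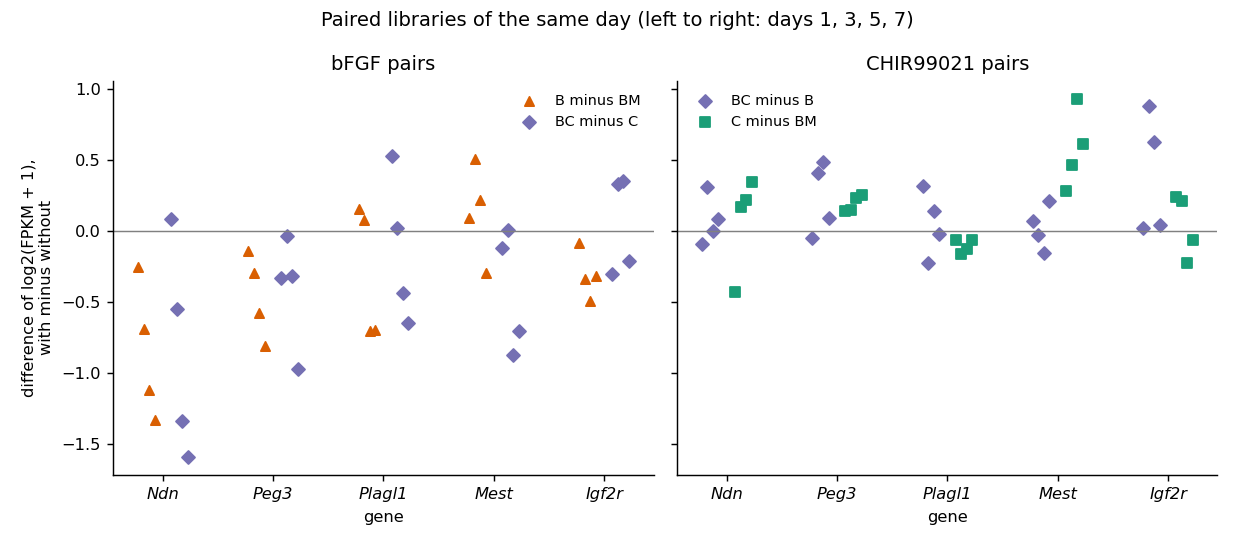
Difference of log2(FPKM + 1) (y axis) between libraries of the same day that differ in 1 factor, for 5 members (x axis), with 1 point per pair and days 1, 3, 5 and 7 from left to right in each cluster. Peg3 lay below 0 in all 8 bFGF pairs and Ndn in 7, and Mest lay above 0 in 6 of 8 CHIR99021 pairs. How many of all genes did so was not counted.

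The bFGF difference was then set out day by day, in a fit with a mean for each combination of day and bFGF, and with CHIR99021 as a term. The error in this fit is the departure from an additive CHIR99021 effect, and again not a spread between cultures. On day 1 none of the 4 tested members was called, while 6.21% of all genes rose and 4.46% fell. Of the 4, only Plagl1 had an unadjusted p below 0.05, at 0.54 ± 0.19 higher with bFGF (edgeR, adjusted p = 0.0967). So did 2979 of all 11272 genes tested, and DESeq2 called no member either. On day 3 only Ndn fell, by 0.92 ± 0.30 (adjusted p = 0.0227), where 25.4% of all genes rose and 25.0% fell. Without BM, B or C of day 3 in turn, the fall of Ndn on that day no longer passed (adjusted p = 0.0634, 0.149 and 0.109).

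On day 5, Ndn fell by 1.73 ± 0.32 (adjusted p = 0.000366) and Plagl1 by 0.94 ± 0.25 (adjusted p = 0.00422), among 37.2% of all genes that rose and 38.6% that fell. The Plagl1 call was lost without B of day 5 (-0.67, adjusted p = 0.0634). On day 7, Ndn fell by 2.15 ± 0.34 (adjusted p = 7.65e-05) and Plagl1 by 1.30 ± 0.26 (adjusted p = 0.000585), where 38.8% of all genes rose and 39.6% fell. So 2 of the 4 members fell and none rose, where 78.4% of all genes passed in either direction, and the median of the 4 members was -0.82 beside -0.01 over all genes. Peg3 had the largest day 7 fold change of the 5, and fell by 2.64 ± 0.33 without the filter (adjusted p = 1.75e-06; 53.0% of genes passed). Quantile normalization removed the day 5 and day 7 differences of Plagl1 (0.14 and 0.02, adjusted p = 0.41 and 0.907), while Ndn on both days and Peg3 on day 7 still passed with it. Igf2r and Mest were not called on any day in this fit.

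**Figure D3:**
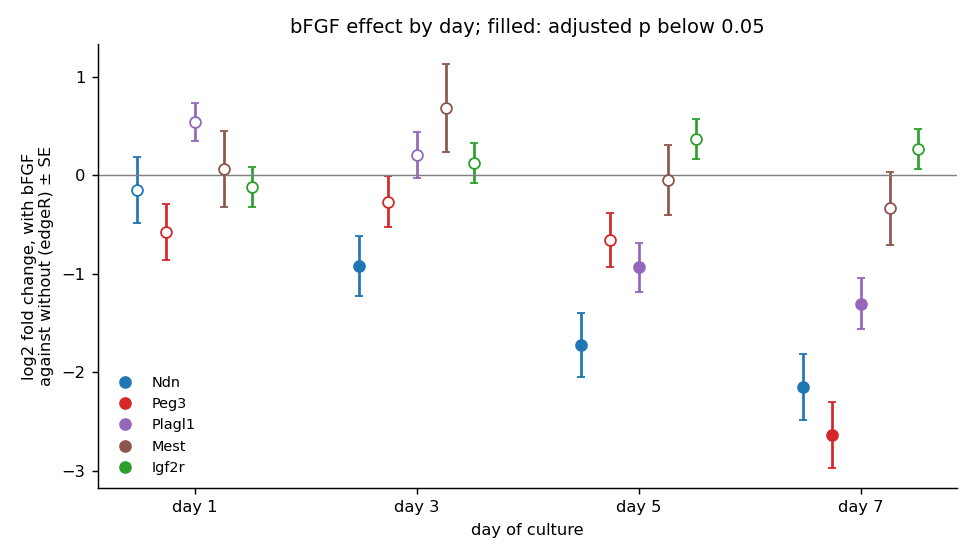
Log2 fold change with bFGF against without (y axis, edgeR, bars ± SE) on each day (x axis) for 5 members, Peg3 from the fit with no filter. Ndn went from -0.15 on day 1 to -2.15 on day 7 and Peg3 from -0.58 to -2.64, and filled points passed an adjusted p of 0.05.

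The 2 sides of the bFGF difference were then followed in time. Without bFGF, from day 1 to day 7, Ndn rose by 1.56 ± 0.29 (adjusted p = 0.000589) and Plagl1 fell by 1.38 ± 0.21 (adjusted p = 0.000108), whereas 32.3% of all genes rose and 31.5% fell. Without C of day 1 the rise of Ndn was 1.02 (adjusted p = 0.0137), and without BM of day 1 it was 2.16. With bFGF, Plagl1 fell by 3.22 ± 0.24 (adjusted p = 2e-07) and Igf2r rose by 0.73 ± 0.21 (adjusted p = 0.00653), where 35.8% of all genes rose and 39.5% fell. The rise of Igf2r was lost without BC of day 1 (0.59, adjusted p = 0.0706) and with library totals alone (0.30, adjusted p = 0.218). Ndn with bFGF gave -0.45 ± 0.39 (adjusted p = 0.311), although on log2(FPKM + 0.1) its fall passed (limma, -0.77, adjusted p = 0.0283). Peg3 fell by 1.496 ± 0.361 with bFGF (adjusted p = 0.00177; 49.4% of genes passed without the filter). Without bFGF it gave 0.56 ± 0.26 (adjusted p = 0.101), and passed as a rise on log2(FPKM + 1) (limma, 0.31, adjusted p = 0.0496) and without B or BC of day 5 (0.60 in both, adjusted p = 0.0231 and 0.0239).

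The change of the bFGF difference between day 1 and day 7 was itself tested. It was -2.00 ± 0.49 for Ndn (adjusted p = 0.00308) and -1.84 ± 0.33 for Plagl1 (adjusted p = 0.000352), while Igf2r (adjusted p = 0.261) and Mest (adjusted p = 0.524) did not pass. Over all genes 31.3% changed upward and 34.1% downward. Peg3 gave -2.06 ± 0.45 without the filter (adjusted p = 0.00098; 41.0% of genes passed). On quantile normalized values the calls of Plagl1 (-0.40, adjusted p = 0.113) and Peg3 (-0.46, adjusted p = 0.0817) were lost in limma, and that of Ndn was not. These contrasts reuse the day 1 and day 7 libraries of the comparisons above and are not independent of them.

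Scaling bore on these values. TMM factors were 0.754 to 0.816 in B and BC of days 5 and 7 and 1.01 to 1.13 in the other 12 cultured libraries. With library totals alone, the median over all genes moved from -0.00 to -0.29 for bFGF over days 1 to 7, from -0.02 to -0.46 on day 5, from -0.01 to -0.54 on day 7, and from -0.04 to -0.48 from day 1 to day 7 with bFGF. The share of called genes that were higher moved with it, from 50.5% to 28.2% over days 1 to 7, from 50.4% to 40.1% on day 3, from 49.1% to 27.3% on day 5, from 49.5% to 27.1% on day 7 and from 47.5% to 28.2% in the time course with bFGF. On day 1 it was 58.2% with TMM, 47.7% with RLE factors and 36.2% with library totals. The falls of Ndn with bFGF over days 1 to 7 and on days 5 and 7 were also called with library totals. Mest on day 7 passed with library totals (edgeR, -0.87, adjusted p = 0.0414) but not with TMM.

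Levels of fibroblast and pericyte markers moved with the same factor. Of 9 such markers 5 entered the test, and all 5, Acta2, Col1a1, Pdgfrb, Col3a1 and Pdgfra, fell with bFGF over days 1 to 7, with log2 fold changes of -4.68 to -0.42 (edgeR, adjusted p from 0.000171 to 0.0218). The defining markers Lum and Cspg4 never reached 0.1 FPKM. Most progenitor markers in the test fell too. Pax6 fell by 1.94 ± 0.27 (adjusted p = 0.000148), Hes1 by 0.89 ± 0.26 (adjusted p = 0.00846), Six3 by 0.50 ± 0.10 (adjusted p = 0.00085) and Sox2 by 0.48 ± 0.10 (adjusted p = 0.0014). Nes did not pass (-0.04 ± 0.12, adjusted p = 0.785). Of the 2 glial markers in the test Glul rose by 0.70 ± 0.11 (adjusted p = 0.000288) and Apoe fell by 0.68 ± 0.17 (adjusted p = 0.00384), and none of the 3 neuronal markers tested passed. The part of cell composition in the falls of Ndn, Peg3 and Plagl1 was not tested.

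The members that moved together were Ndn and Peg3. Spearman's rho between their FPKM over the 17 libraries was 0.82, and 0.71 and 0.79 within the 8 libraries without and the 8 with bFGF. Peg3 and Igf2r gave 0.72, Plagl1 and Ndn 0.41, and Mest and Ndn 0.11. Plagl1 and Ndn ran -0.40 without bFGF and 0.75 with it, Peg3 and Plagl1 -0.86 and 0.52, and Mest and Ndn 0.67 and -0.51, so these pairs changed sign between the groups. These values describe libraries that share days and treatments, and are given without a test.

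Over all genes with a mean of at least 1 FPKM, the nearest to Ndn by Pearson's r of log2(FPKM + 1) over the 17 libraries were Pja1 (0.980), Galnt2 (0.977) and Spats2l (0.974). The match was not particular to these, as 157 genes lay within 0.05 of the nearest. Nearest to Plagl1 were Ibtk (0.966), Atm (0.963) and Gpt2 (0.960), with 24 genes within 0.05, and nearest to Igf2r were Ugt1a6a (0.957), Matn2 (0.952) and Per2 (0.944), with 15. Mest had no close match, since its nearest were R3hdml (0.748), Dbi (0.748) and Tubb3 (0.731). On log2(FPKM + 0.1) only 1 of these 3 stayed among the 3 nearest, with Tubb3 first (0.777) and R3hdml at rank 19 (0.627).

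Other genes of the same imprinted domains were mostly low or not listed. Of 30 such neighbours the tables listed 19 and 7 entered the test, of which 3 rose and 1 fell with bFGF over days 1 to 7, with a median log2 fold change of 0.10. For this and the next 3 lists the share over all genes is the 34.6% higher and 33.9% lower given above, and the lists are small. With library totals alone 1 neighbour rose and 4 fell, and on quantile normalized values 2 rose and 3 fell. Cdkn1c, the CDK inhibitor p57 of the Kcnq1 domain, rose by 0.85 ± 0.22 (adjusted p = 0.0047), from 0.95 to 3.10 FPKM without bFGF to 1.10 to 4.28 with it. Snrpn, the splicing gene of the domain that holds Ndn, rose by 0.39 ± 0.16 (adjusted p = 0.0442) and the ubiquitin ligase gene Ube3a of that domain by 0.21 ± 0.08 (adjusted p = 0.0413), the latter with the opposite sign under library totals (-0.08). Neither passed with library totals (Snrpn 0.10, adjusted p = 0.45) or on log2(FPKM + 1) (Snrpn 0.09, adjusted p = 0.426), and Ube3a did not pass on quantile normalized values either. Cobl, next to Grb10, fell by 0.86 ± 0.19 (adjusted p = 0.00202). The most abundant were Cd81 at a mean of 296 FPKM (-0.22 ± 0.11, adjusted p = 0.0779) and Nap1l4 at 72.1 (-0.03 ± 0.09, adjusted p = 0.736), which both passed as falls with library totals and on quantile normalized values.

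Of 26 other imprinted genes, 14 were tested, 4 rose and 5 fell with bFGF, with a median of -0.21. Gnas, the stimulatory G protein gene, was the highest at a mean of 750 FPKM and rose by 0.83 ± 0.19 (adjusted p = 0.00202), but had the opposite sign on quantile normalized values (-0.09, adjusted p = 0.243). Commd1 rose by 0.59 ± 0.17 (adjusted p = 0.00814) and Blcap by 0.58 ± 0.16 (adjusted p = 0.00627). Dcn, the matrix proteoglycan decorin, fell by 2.04 ± 0.35 (adjusted p = 0.000506), from 0.59 to 9.61 FPKM without bFGF to 0.26 to 1.71 with it. Impact, a regulator of translation, fell by 0.63 ± 0.12 (adjusted p = 0.000965), Ppp1r9a by 0.58 ± 0.16 (adjusted p = 0.00542) and H13, a signal peptide peptidase at a mean of 67.0 FPKM, by 0.23 ± 0.07 (adjusted p = 0.0111). With library totals alone the list held 2 that rose and 10 that fell, with Commd1 no longer called, and on quantile normalized values 2 and 4, with Ppp1r9a no longer called.

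Most IGF genes around Igf2 and Igf2r were better measured than the ligand Igf2. The other ligand gene Igf1 (mean 0.029 FPKM), Igfbp5 (0.046), Pappa (0.01) and Pappa2 (0.018) lay below it. Of 16 partners 9 were tested, 2 rose and 4 fell with bFGF, with a median of -0.14. Igfbp3, which binds IGFs outside the cell, rose by 3.77 ± 0.46 (adjusted p = 8.12e-05), from 0.77 to 20.3 FPKM without bFGF to 27.3 to 61.8 with it, and was 39.2 at day 0. Igfbp2, another binding protein, fell by 2.98 ± 0.58 (adjusted p = 0.000956) and reached 36.5 FPKM without bFGF but no more than 1.37 with it. The RNA-binding Igf2bp1 fell by 1.09 ± 0.22 (adjusted p = 0.00126), its relative Igf2bp2 rose by 0.55 ± 0.11 (adjusted p = 0.000807) and the receptor substrate Irs1 fell by 0.42 ± 0.12 (adjusted p = 0.00636). The receptor Igf1r, at a mean of 17.9 FPKM, gave -0.14 ± 0.10 (adjusted p = 0.255), and fell with library totals (-0.43, adjusted p = 0.0113). On quantile normalized values 3 partners rose and 1 fell, and Igf2bp1 (-0.21, adjusted p = 0.0855) and Irs1 (-0.17, adjusted p = 0.231) were not called.

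Of 10 factors that maintain imprints, 7 were tested, 4 rose and 2 fell with bFGF, with a median of 0.26. Uhrf1, which guides DNMT1 to newly copied DNA, rose by 1.75 ± 0.27 (adjusted p = 0.000293), with 4.39 to 52.8 FPKM without bFGF, 16.7 to 57.9 with it and 72.7 at day 0. The zinc finger gene Zfp57, whose protein protects methylated imprints, rose by 0.57 ± 0.13 (adjusted p = 0.00181). The maintenance methyltransferase gene Dnmt1 rose by 0.27 ± 0.07 (adjusted p = 0.00632) and Trim28, at a mean of 129 FPKM, by 0.26 ± 0.08 (adjusted p = 0.0079), and both had a fold change of -0.03 with library totals. The de novo methyltransferase gene Dnmt3a fell by 0.62 ± 0.15 (adjusted p = 0.00298) and Zfp445 by 0.36 ± 0.11 (adjusted p = 0.0111). With library totals alone 1 gene of this list rose and 3 fell, and Zfp57 was not called (0.28, adjusted p = 0.0666). On quantile normalized values 2 rose and 2 fell.

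**Figure D4:**
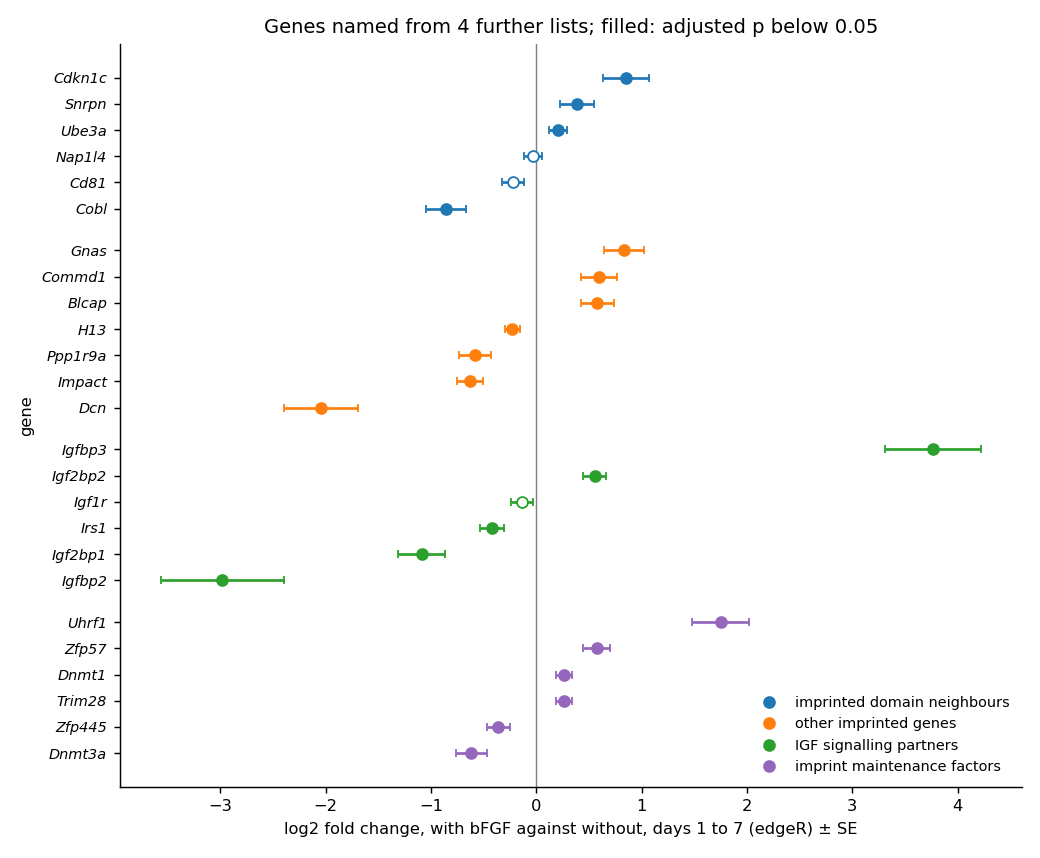
Log2 fold change with bFGF against without over days 1 to 7 (x axis, edgeR, bars ± SE) of the genes named from 4 further lists (y axis), coloured by list. The widest spread was among the IGF partners, from Igfbp2 at -2.98 to Igfbp3 at 3.77, and open points did not pass an adjusted p of 0.05.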

How the data were processed

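RNA of mNRPCs was sequenced on the BGISEQ-500 after selection of poly(A) RNA. The paper names Bowtie 2 and eXpress, whereas the submitters' processing notes name Bowtie2, RSEM and the build mm10. Per gene, the authors deposited an expected count, in which shared reads are split so that values need not be whole, and an FPKM. Genes missing from a table were set to 0, except H19 and Meg3. Depth was even, so the counts of the low members set their precision.

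Rounded expected counts went into edgeR 4.0.16 (R 4.3.3, TMM, glmQLFit, glmQLFTest, threshold 0.05). The test covered 11272 genes whose FPKM averaged 1 or more across the 16 cultured libraries. An additive model of day, bFGF and CHIR99021 had 10 residual degrees of freedom and a model of day by bFGF means had 7. Tested on simulated data with 200 changed genes among 11272, a log2 change of 1 was recovered in 100% of cases over days 1 to 7 and in 79% on day 7. False calls numbered 21 and 8. The simulated counts held no day effects. Their set spread lay between the common biological coefficients of variation of the additive fit (24.7%) and the day by bFGF fit (10%). These shares therefore do not give the power of the tests above, least of all at low counts. Treatment and day came from the sample labels.

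The members and lists were chosen with earlier results of these data known. All members were named. From each other list, the 2 most abundant genes were named, and up to 3 of its largest called changes in each direction. The 3 genes most like each member in level were named too, each at 1 FPKM or more on average. Alternatives were other filters, RLE factors, library totals, DESeq2 1.42.0, limma 3.58.1 on log2(FPKM + 1), on log2(FPKM + 0.1) or on quantile normalized values, other models and leaving out libraries. Those of Peg3 without the filter were chosen after seeing the data. Promoters came from RefSeq GRCm38.p6, the build of mm10, with a window for 9 of the 10 members. Tables and plots were made in Python 3.11.15. A marker gene of the progenitor list is not reported here.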

Additional observations from a re-analysis of the deposited data

Results flagged for a closer look

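For 3 members the bFGF difference moved downward from day 1 to day 7 by a test of the change itself. It changed by -2.00 on the log2 scale for Ndn and by -1.84 for Plagl1 (edgeR, adjusted p = 0.00308 and 0.000352), and by -2.06 for Peg3 in the fit without a filter (adjusted p = 0.00098). On quantile normalized values those of Plagl1 (-0.40, adjusted p = 0.113) and Peg3 (-0.46, adjusted p = 0.0817) did not pass in limma.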

How the results depend on the processing

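Of 363 alternative fits of the called member changes, 348 kept direction and call, 13 lost the call and 2 reversed. Many of these fits left out a library of a day that the contrast does not compare, which could hardly change it. The count therefore overstates how firm the calls are. The falls of Ndn with bFGF over days 1 to 7 and on days 5 and 7 held in all their fits. With a mean FPKM of at least 5 only Igf2r was left, and 0 members were called for bFGF over days 1 to 7 or on days 3, 5 and 7, for time without bFGF and for the change of the bFGF difference, and 1 for time with bFGF. Without the filter 2 members were called for bFGF over days 1 to 7, Ndn and Peg3, and with the mean of the day contrasts 2, Ndn and Plagl1 (adjusted p = 0.0113). The libraries of each day alone called 0 members on day 3, 1 on day 5 and 1 on day 7. They called 2534 genes on day 3. On day 5 alone 3563 genes rose and 3888 fell, and on day 7 alone 3781 rose and 4071 fell.

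On quantile normalized values 1 member was called on day 5, on day 7, for time with bFGF and for the change of the bFGF difference. On this scale 4110 of 11272 genes rose and 4003 fell on day 5, and 4117 rose and 4185 fell on day 7. For time with bFGF 3698 genes rose and 4243 fell. Plagl1 was then 0.16 over days 1 to 7, 0.14 on day 5 and 0.02 on day 7, Ndn 0.073 on day 1 and Mest 0.34 on day 7. Igf2r turned negative with bFGF on this scale (-0.14 over days 1 to 7, then -0.019, -0.081 and -0.26 on days 3, 5 and 7). It was also negative with library totals (-0.13, with -0.072 on day 5 and -0.27 on day 7), on log2(FPKM + 1) (-0.14, then -0.007, -0.071 and -0.27) and on log2(FPKM + 0.1) (-0.14, then -0.008, -0.073 and -0.27). Mest over days 1 to 7 was -0.19 with library totals, -0.15 on log2(FPKM + 1) and -0.15 on log2(FPKM + 0.1). Library totals and log2(FPKM + 1) called 1 member for time with bFGF. There 2487 genes rose and 6325 fell with library totals, and 2457 rose and 6266 fell on log2(FPKM + 1). The cause of these differences was not tested.

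For CHIR99021, 38 genes were called in the main test, 22 without the filter, 281 by DESeq2, 72 on quantile normalized values and 24 without day 1. For the interaction 1 gene was called, 5 by DESeq2, 2 without day 1, and 0 with library totals, on log2(FPKM + 1), on log2(FPKM + 0.1) or on quantile normalized values. Leaving out 1 library at a time gave 1 to 28 genes for CHIR99021, 0 to 1 for the interaction and 145 to 1778 for bFGF on day 1, and 0 to 1 members on day 3, 1 to 3 on day 5 and 1 to 2 for time with bFGF. Mest then ran from -0.051 to 0.20 for bFGF over days 1 to 7, Plagl1 from -0.24 to 0.042 and Ndn from 0.00 to 0.32 for CHIR99021, Ndn from -0.67 to 0.47 for bFGF on day 1 and Igf2r from -0.28 to 0.46 on day 3. No paired analysis was possible because each treatment and day has 1 library and so no replicate numbers to match, and the pairs of the report are matched by day and by the other agent, not by culture. Igf2, Dlk1 and Grb10, at 11 counts or fewer, limit any comparison by depth.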
